A study of Homo sapiens with 4 samples.

Results

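Of 27356 genes measured in HaCaT cells, 6616 carried an Ensembl identifier in place of a gene symbol, and 222 of these had a mean of at least 2 FPKM (a read count scaled by gene length and library size) over the 4 libraries. These 222 genes without a symbol are described here. They were chosen by the missing symbol and by their level over all libraries, so their level is not a finding. The difference between treatments was not used to choose them, but a gene high in only 1 group can reach the mean through that group alone. Among genes with a symbol, 8883 reached the same level.

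HaCaT is an immortalised human keratinocyte line, grown here in plates and treated at a plating density of 50% for 72 h. There were 2 libraries from cells given PBS, the vehicle, and 2 after M5, which combined oncostatin M, TNF-α and the interleukins 1α, 17 and 22 at 10 μg/L each. The cytokine mix is used as a culture model of the inflamed epidermis of psoriasis and holds no immune cells, and all libraries came from 1 cell line. In both M5 libraries the treatment tag gives another agent, DAC at 25 μM. The titles, the protocol and the series description give M5, and the titles were followed. Nothing in the labels says that the replicates were separate cultures, so the spread behind each p-value is that of these libraries and may be technical.

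Library totals were 15858644 and 16051974 counts in PBS and 18992988 and 19749612 in M5. The 222 genes took 0.129% and 0.131% of these in PBS and 0.122% and 0.117% in M5. All 12 keratinocyte markers examined were present at 1 FPKM or more, with a summed level of 4056 to 4079 FPKM in PBS and 5020 to 5341 FPKM in M5. The sum hides opposite changes. KRT5 was at 760 and 753 FPKM in PBS and 363 and 336 FPKM in M5, and DSC3 was also lower. The others were higher, such as KRT17 at 138 and 146 FPKM in PBS and 582 and 569 FPKM in M5. Markers of melanocytes summed to between 1.40 and 2.40 FPKM, of endothelium to between 0.281 and 0.623 FPKM and of fibroblasts to between 0.402 and 0.682 FPKM. Leukocyte markers summed to 1.65 to 2.53 FPKM in PBS and 4.71 to 5.37 FPKM in M5, nearly all of it CD14, and CD3E, a T cell marker, did not pass 0.0474 FPKM in any library. In such bulk samples, fewer cells of a type and less RNA per cell cannot be told apart.

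Long noncoding RNAs are transcripts without a recognised protein product. Some act on the chromatin or transcription of neighbouring genes, others bind RNA or protein, and for most no function is known. Processed pseudogenes are copies of mRNAs that were reverse transcribed and inserted elsewhere in the genome, where some are transcribed and many are silent. Unprocessed pseudogenes arose by duplication of a gene with its introns. Genes of these kinds often receive no symbol until someone studies them.

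GENCODE 29, an annotation of GRCh38, holds 176 of the 222 genes and gives most of them a clone-based name, which is used below. It lists 47 of the 222 as lincRNA (intergenic long noncoding RNA), 45 as antisense, 33 as processed pseudogenes, 25 as sense intronic, 10 as TEC (a provisional class that awaits experimental proof), 8 as unprocessed pseudogenes, 6 as other noncoding types and 2 as protein coding on unplaced scaffolds. The other 46 identifiers are not in GENCODE 29 and have no position here. The genes were short and sparsely counted, with a median length of 629.5 bases and a median mean count of 44.5, against 5210 bases and 743 counts for tested genes with a symbol. A single exon made up 98 of them. Chromosome 17 held 24 of the 176 placed genes (13.6%), against 5.97% of tested genes with a symbol.

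Transcript ends are shown for 6 of the members with the largest changes, because the RNA was selected by its poly(A) tail and a poly(A) signal (AATAAA, or its common variant ATTAAA) near the end marks where mRNA is usually cut and tailed. Each run is the last 100 bases of the longest GENCODE 29 transcript, from 5′ to 3′ on the transcript's own strand, and capitals mark the last AATAAA within the last 50 bases. The first 3 belong to genes that rose with M5 and the last 3 to genes that fell.
AL356234.3: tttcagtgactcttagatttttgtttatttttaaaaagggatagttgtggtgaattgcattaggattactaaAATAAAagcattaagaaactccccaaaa
AC002401.4: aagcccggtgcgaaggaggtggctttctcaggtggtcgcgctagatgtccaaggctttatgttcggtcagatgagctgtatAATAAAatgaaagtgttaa
AL513304.1: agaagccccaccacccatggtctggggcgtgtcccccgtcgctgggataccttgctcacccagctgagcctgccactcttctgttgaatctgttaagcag
AC097451.1: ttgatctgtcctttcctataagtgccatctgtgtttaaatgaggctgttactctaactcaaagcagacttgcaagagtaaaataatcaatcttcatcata
AC122129.1: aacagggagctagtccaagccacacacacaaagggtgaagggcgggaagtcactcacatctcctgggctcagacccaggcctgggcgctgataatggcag
AC068580.2: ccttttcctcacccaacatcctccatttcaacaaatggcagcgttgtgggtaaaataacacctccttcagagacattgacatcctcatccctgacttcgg

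The signal started 28 bases before the annotated end of AL356234.3 and 19 bases before that of AC002401.4, which rose. Of large changes not shown, Z94721.3, which fell, held AATAAA starting 12 bases before the end. ATTAAA started 17 bases before the end in AC104564.4, which fell, and 36 bases before it in AC092368.3, which rose. Neither motif is in the last 50 bases of AL513304.1, which rose, or of the other 3 shown, which fell. Neither was there in AC078820.1 and AL136018.1, which rose, or in AC104563.1, AC007785.1 and AL355987.5, which fell. Among the 174 members with a transcript sequence, 61 (35.1%) held AATAAA or ATTAAA in their last 50 bases, read on the transcript strand only, and 46 (26.4%) held AATAAA. The same window held either motif in 77.7% and AATAAA in 63.3% of 9590 tested protein-coding genes with a symbol. The share was 53.2% among lincRNAs (25 of 47), 48.0% among sense intronic genes (12 of 25) and 42.2% among antisense genes (19 of 45). By call, 9 of 16 members that rose, 8 of 28 that fell and 44 of 130 that did not pass the test held either motif, and 5, 5 and 36 of them held AATAAA, with no test made. None of the 33 processed and 8 unprocessed pseudogenes held either motif in that window, and they are counted in the 35.1% and lower it. How far these annotated copies reach beyond the coding part of their parents was not examined, so nothing is read from this absence. A match or its absence describes letters at an annotated end, which need not be the end of the RNA in these cells.

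With M5, 27 of the 222 genes rose (12.2%), 37 fell (16.7%) and 158 did not pass the test (edgeR quasi-likelihood test, Benjamini-Hochberg adjusted p under 0.05 over all 10809 tested genes). The background was higher in both directions: 28.8% of all tested genes rose and 27.1% fell, 55.9% in all. Of tested genes with a symbol alone, 57.7% were called, 29.8% as higher and 27.8% as lower. The median log2 fold change was -0.13 over the 222 genes and -0.01 over all tested genes. At least 2-fold changes were called for 16 genes that rose and 12 that fell. Scaled by library totals, 21 rose and 49 fell, and by TPM 20 and 51, so that the share of rises among the calls went from 42.2% to 30.0% and 28.2%. These scalings moved the median of all tested genes to -0.16 and -0.19.

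The counts behind these genes were low, and the share called was larger at higher counts. The median standard error of the log2 fold change was 0.30 over the 222 genes and 0.087 over tested genes with a symbol. Of the 52 members with a mean of 100 counts or more, 24 (46.2%) were called, against 60.02% of genes with a symbol at that count. In the middle range of the members' counts, from 24.4 to 94.7, 28 of 110 members (25.5%) were called, against 36.6% of 588 genes with a symbol (16.5% higher, 20.1% lower). Genes without a symbol at 1 to under 2 FPKM were called in 19.3% of 331 cases (7.85% higher, 11.5% lower). Members were thus called less often in the middle count range too, and the reason was not tested. The range of 100 counts or more has no upper limit, so members and genes with a symbol are not matched on count there. A member that missed the threshold is not shown to have stayed the same.

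**Figure D1:**
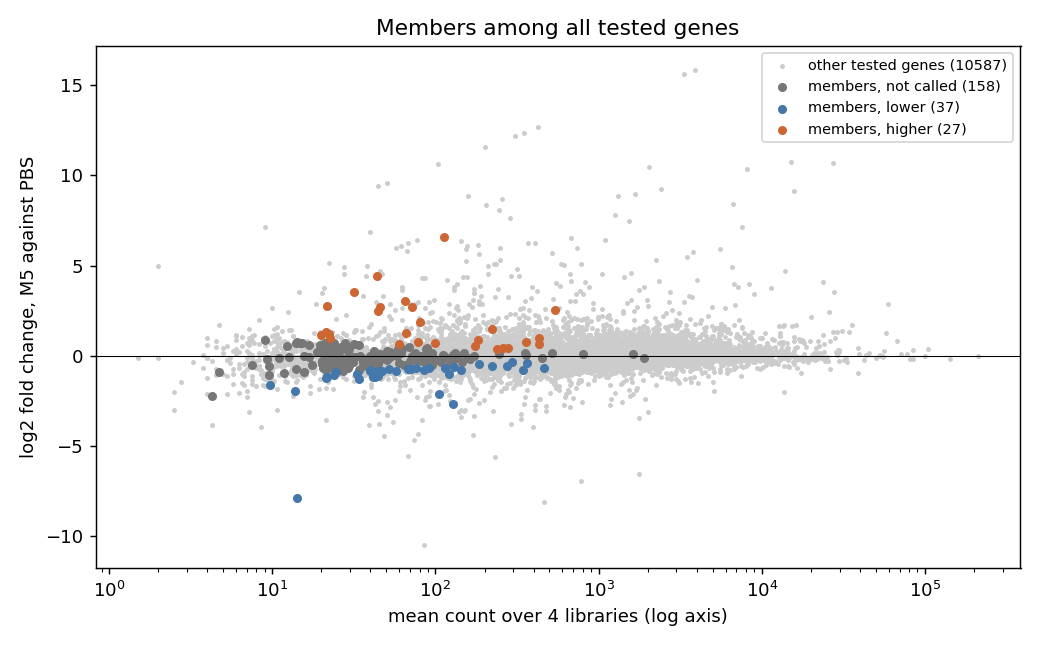
Log2 fold change of M5 against PBS (vertical axis) against the mean count over the 4 libraries (horizontal log axis) for all tested genes in grey and for the 222 genes without a symbol in colour by call. The members lie mostly below 100 counts, where 40 of 170 were called; the lowest coloured point, AC068580.2, has 0 counts in M5 and its fitted value is no bound.

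The threshold of 2 FPKM bears on these counts. In 25 members the PBS mean lay under 2 FPKM and in 42 the M5 mean did, and these include 16 of the 27 rises and 18 of the 37 falls. Among the 155 members with both means at 2 FPKM or more, 11 rose and 19 fell. Just inside the threshold lay ENSG00000289004 at 2.003, ENSG00000291068 at 2.006 and ENSG00000253476 (AC091185.1) at 2.008 FPKM. Just outside lay ENSG00000275401 at 1.990, ENSG00000291008 at 1.990 and ENSG00000289154 at 1.984 FPKM. Their counts in PBS and M5 were 20, 25, 19 and 17 for ENSG00000289004 and 33, 38, 82 and 90 for ENSG00000291008.

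The largest rise was that of AL356234.3 (ENSG00000283265), a lincRNA of 3 exons on chromosome 6 (137693068 to 137700415, plus strand). It had 1 and 3 counts in PBS and 215 and 231 in M5, or 0.119 ± 0.0832 and 12.1 ± 0.232 CPM (SD, n = 2; CPM are counts scaled by library size, here with TMM). The groups lay far apart, with a log2 fold change of 6.59 (SE 0.36; adjusted p = 1.14e-11, edgeR), or 7.50 without PBS replicate 2. The gene overlaps LINC03004, a noncoding gene on the same strand with which it shares no exonic base, which went from 1 and 2 counts to 122 and 120. PTPN11P3, a pseudogene 5008 bases away, had 0 counts in both PBS libraries and 103 and 99 in M5. Further along, WAKMAR2, a noncoding RNA 123258 bases away, rose by 3.12 on the log2 scale. TNFAIP3, which encodes the NF-kB inhibitor A20 and lies 166773 bases away, rose by 3.81. All 4 of the nearest tested genes with a symbol rose.

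AC078820.1 (ENSG00000258088), a lincRNA of 4 exons on chromosome 12 (75694010 to 75698816, minus strand), had 3 and 6 counts in PBS and 46 and 72 in M5. Both M5 libraries lay above both PBS libraries, and the log2 fold change was 3.55 (SE 0.46; adjusted p = 2.46e-06, edgeR). Its nearest tested genes with a symbol are KRR1, a ribosome assembly factor 182374 bases away with a log2 fold change of 0.40, and PHLDA1, 326631 bases away, with 1.65.

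AC002401.4 (ENSG00000276851), a single-exon lincRNA on chromosome 17 (50094065 to 50094647, plus strand), had 15 and 11 counts in PBS and 109 and 126 in M5. Its log2 fold change was 3.03 (SE 0.30; adjusted p = 5.63e-08, edgeR). PDK2, a kinase that inhibits pyruvate dehydrogenase, lies 90 bases away on the same strand and did not pass the test, with 106 and 123 counts in PBS and 84 and 106 in M5 (log2 fold change -0.40, adjusted p = 0.111). ITGA3, the α3 chain of a laminin-binding integrin, lies 3584 bases away and rose by 0.80. The differences between AC002401.4 and its flanking genes were not tested.

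AC103718.1 (ENSG00000285108), a lincRNA of 8 exons on chromosome 8 (129685401 to 129723023, minus strand), was the best counted of the rises. It had 142 and 155 counts in PBS and 952 and 913 in M5, or 8.83 ± 0.478 and 50.8 ± 3.11 CPM. This was a log2 fold change of 2.52 (SE 0.11; adjusted p = 2.99e-13, edgeR). GSDMC, a pore-forming gasdermin 25173 bases away, rose by 2.04, and CYRIB, 116570 bases away, did not pass the test at -0.12.

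AL136018.1 (ENSG00000258657) is antisense to GZMB, the granule protease of cytotoxic lymphocytes, on chromosome 14 (24595723 to 24657774, plus strand). It was counted 14 and 11 times in PBS and 67 and 86 times in M5, a log2 fold change of 2.47 (SE 0.33; adjusted p = 3.90e-06, edgeR). GZMB went from 11 and 13 counts to 431 and 454, a log2 fold change of 5.06. The gene pair shares no exonic base in GENCODE 29. The kit does not mark strand, so reads of introns and unannotated exons of one cannot be told apart from those of the other. The summed leukocyte markers given above were also higher in M5. Nearly all of that sum was CD14, at 2.30 and 1.55 FPKM in PBS and 4.64 and 5.10 FPKM in M5. The T cell marker CD3E did not pass 0.0474 FPKM in any library. A part of such markers in the GZMB result was not tested.

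AL513304.1 (ENSG00000233052) lies inside an intron of ADARB2, an RNA-editing enzyme family member, on chromosome 10 (1361001 to 1361637, minus strand). It had 17 and 5 counts in PBS and 79 and 81 in M5, a log2 fold change of 2.72 (SE 0.38; adjusted p = 7.18e-06, edgeR). The PBS libraries disagreed, and the value was 3.85 without PBS replicate 1 and 2.09 without PBS replicate 2. AC092368.3 (ENSG00000261512), on chromosome 16 (46622861 to 46624451, minus strand), had 33 and 32 counts in PBS and 133 and 124 in M5, a log2 fold change of 1.85 (SE 0.24). Its sequence repeats that of a protein-coding gene, as described below.

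The remaining 3 of the 10 largest rises were identifiers without a position. ENSG00000290116 had 1 and 6 counts in PBS and 91 and 78 in M5, a log2 fold change of 4.42 (SE 0.46). Leaving out PBS replicate 1 gave 3.67, and leaving out PBS replicate 2 gave 6.11. ENSG00000287657 had 2 and 8 counts in PBS and 35 and 42 in M5, a log2 fold change of 2.79 (SE 0.51), with 2.13 and 4.05 when the same libraries were left out. ENSG00000287929 had 14 and 21 counts in PBS and 123 and 128 in M5, a log2 fold change of 2.71 (SE 0.28). In each, both M5 libraries lay above both PBS libraries. The edgeR adjusted p-values were 1.28e-07, 0.000136 and 1.16e-07. The other 17 rises ranged from 0.39 to 1.47 on the log2 scale.

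**Figure D2:**
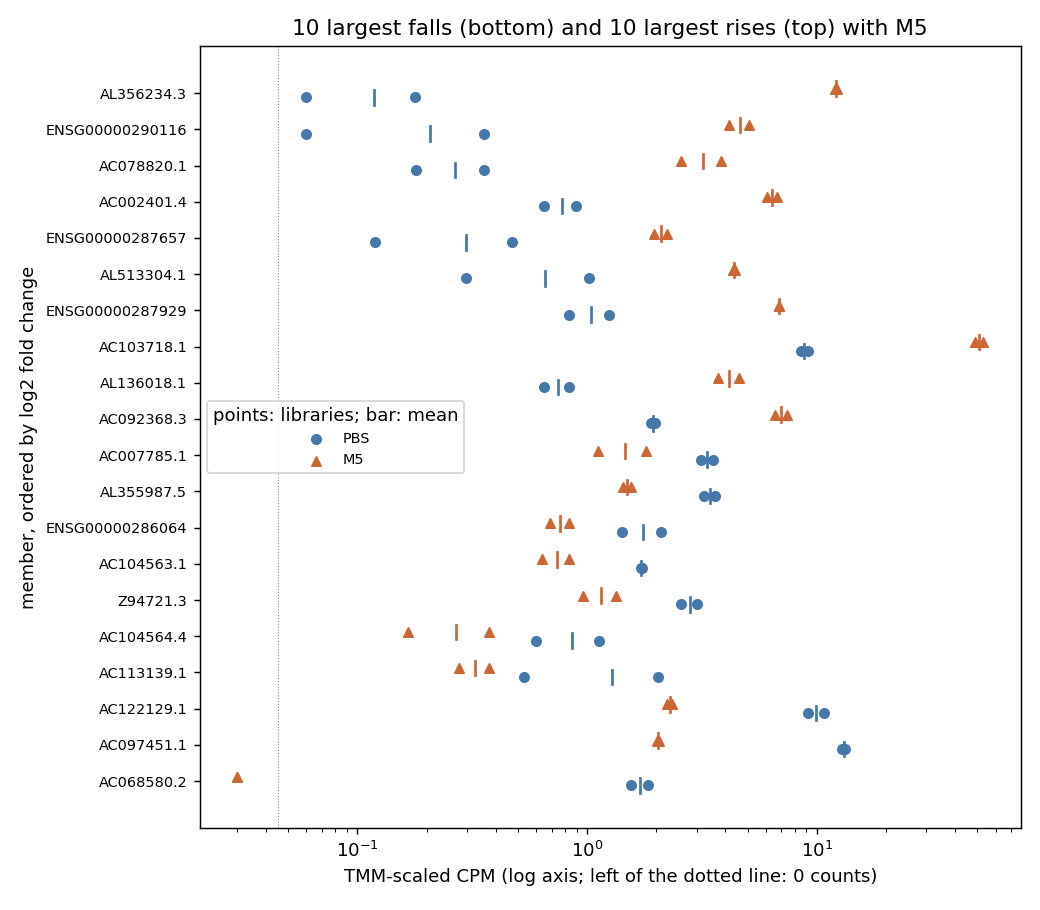
TMM-scaled CPM in each library (horizontal log axis) for the 10 largest falls and the 10 largest rises, circles for PBS and triangles for M5, with a bar at each group's mean. In these 20 members, chosen for their change, the groups do not overlap. The groups also lay apart in all 64 called members and in 73 of the 158 that were not called. The share over all tested genes was not counted, so these counts show nothing particular to the members. AC068580.2 has 0 counts in both M5 libraries and AC113139.1 has 1 PBS library at 0.532 CPM, close to its M5 libraries.

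Among the falls, AC068580.2 (ENSG00000230834) was the only member with 0 counts in both libraries of a group. This lincRNA of 2 exons on chromosome 11 (1776930 to 1778388, minus strand) had 26 and 31 counts in PBS and 0 and 0 in M5. Against a floor of 3 counts over the M5 libraries together it was at least 20.8-fold lower (edgeR adjusted p = 6.84e-06). CTSD, a lysosomal protease 12357 bases away, went from 3245 and 3210 counts to 2751 and 2733, a log2 fold change of -0.36. The next nearest tested gene with a symbol, the tetraspanin CD81, had a log2 fold change of 0.22.

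AC097451.1 (ENSG00000250657), a transcript of 5 exons on chromosome 4 (43340875 to 43345600, plus strand), had 222 and 218 counts in PBS and 37 and 38 in M5. Its level was 13.1 ± 0.270 CPM in PBS and 2.04 ± 0.0261 CPM in M5, a log2 fold change of -2.68 (SE 0.21; adjusted p = 1.93e-09, edgeR). No tested gene with a symbol lies close to it: the nearest, SLC30A9, a zinc transporter family member, lies 1250418 bases away and had a log2 fold change of -0.11 that did not pass the test.

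AC122129.1 (ENSG00000197815) is a single-exon antisense gene on chromosome 17 (17858227 to 17860041, plus strand) within TOM1L2, which encodes an endosomal sorting protein. It had 153 and 181 counts in PBS and 42 and 42 in M5, a log2 fold change of -2.12 (SE 0.22; adjusted p = 1.33e-07, edgeR). TOM1L2 fell from 4537 and 4372 counts to 1697 and 1777, a log2 fold change of -1.49. No exonic base is shared, yet intronic reads of TOM1L2 cannot be told apart from reads of AC122129.1 without strand.

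The other large falls rested on few counts. AC113139.1 (ENSG00000271555), on the opposite strand within RB1CC1, an autophagy gene, had 34 and 9 counts in PBS and 5 and 7 in M5. Its log2 fold change of -1.95 (SE 0.65; adjusted p = 0.0159, edgeR) was -2.61 without PBS replicate 2. Without PBS replicate 1 it was -0.69 and did not pass the test. The call was also lost with limma on log2(FPKM + 1) and with no filter. AC104564.4 (ENSG00000264647), within GIT1 on the same strand, had 10 and 19 counts in PBS and 3 and 7 in M5. Its fall of -1.64 (adjusted p = 0.0445, edgeR) was lost in 6 of 14 alternatives, DESeq2 and no filter among them. They include leaving out PBS replicate 2 or M5 replicate 1, at -1.12 and -1.19. The fall was -2.32 without M5 replicate 2, while GIT1 itself had -0.04.

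Z94721.3 (ENSG00000285730), on chromosome 6 and overlapping CEP43 on the opposite strand, had 43 and 51 counts in PBS and 24 and 18 in M5, a log2 fold change of -1.28 (SE 0.33). AL355987.5 (ENSG00000274356), an unprocessed pseudogene 769 bases from SNHG7, a host gene of small nucleolar RNAs, had 54 and 61 counts in PBS and 28 and 27 in M5, a log2 fold change of -1.19 (SE 0.29). SNHG7 fell by 0.67. AC007785.1 (ENSG00000267922), a lincRNA that overlaps IGFL2 and IGFL2-AS1 on chromosome 19, had 59 and 53 counts in PBS and 20 and 34 in M5, a log2 fold change of -1.18 (SE 0.31), and IGFL2-AS1 fell by 0.74. In these 3 members the M5 libraries lay below the PBS libraries. AC104563.1 (ENSG00000240036), a pseudogene of the ribosomal protein gene RPS25, and ENSG00000286064, which has no position, had log2 fold changes of -1.22 and -1.20. The first was counted 29 times in each PBS library and 15 and 12 times in M5, the second 35 and 24 times in PBS against 15 and 13. Neither passed without M5 replicate 2, at -1.04 and -1.07, nor did ENSG00000286064 without PBS replicate 1, at -0.89. Both calls were also lost with DESeq2. The other 27 falls ranged from -0.32 to -1.14.

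By gene type, the genes not in GENCODE 29 had 11 rises and 8 falls among 46 (41.3% called) and the lincRNAs 5 rises and 11 falls among 47 (34.0%). Antisense genes had 4 rises and 6 falls among 45 (22.2%), sense intronic genes 4 rises and 2 falls among 25 (24.0%), and processed pseudogenes 2 rises and 4 falls among 33 (18.2%). TEC genes had 2 falls among 10, unprocessed pseudogenes 1 rise and 1 fall among 8, other noncoding genes 2 falls among 6 and the scaffold genes 1 fall among 2. The types were not compared by a test, and their counts differ. The median mean count ran from 16.25 for unprocessed pseudogenes to 102 for TEC genes. It was 58.6 for genes not in GENCODE 29, 44.8 for lincRNAs and 42.8 for processed pseudogenes. Whether count bears on the shares called was not tested.

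**Figure D3:**
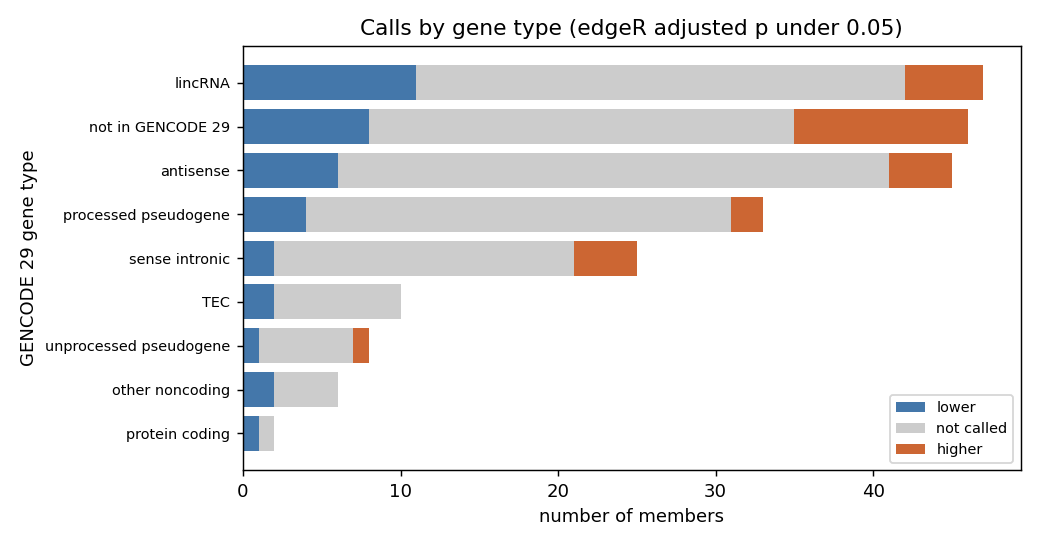
Number of members (horizontal axis) of each GENCODE 29 gene type that fell, did not pass the test or rose with M5, stacked from 0. The 46 genes not in GENCODE 29 hold 11 of the 27 rises, and the 47 lincRNAs hold 11 of the 37 falls.

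Of the 6 with the highest level, the EEF1G pseudogene AC008038.1 (ENSG00000283041, 82.6 FPKM), the RPS25 pseudogene AC034236.1 (ENSG00000185641, 68.5 FPKM), the TEC gene AC018629.1 (ENSG00000279806, 53.4 FPKM) and the RPS10 pseudogene AC024293.1 (ENSG00000244313, 40.1 FPKM) did not pass the test. AC018629.1, a single exon on chromosome 17 (40473554 to 40475289, minus strand) that overlaps no other gene, had 1504 and 1480 counts in PBS and 1820 and 1731 in M5, a log2 fold change of 0.12 (SE 0.065, adjusted p = 0.114). TNS4, 539 bases from AC018629.1, had 11962 and 12063 counts in PBS and 16063 and 15813 in M5. It rose by 0.28 (adjusted p = 0.000166, edgeR). The other 2 of the 6, neither with a position, rose. ENSG00000290032, 248 bases long, went from 27.7 and 27.9 to 66.0 and 72.9 FPKM, a log2 fold change of 1.47 (SE 0.15; adjusted p = 1.64e-07, edgeR). ENSG00000286966, 855 bases long, went from 18.1 and 21.6 to 34.4 and 36.5 FPKM, a log2 fold change of 0.99 (SE 0.11; adjusted p = 4.17e-07, edgeR).

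Among the other members that were the most abundant of their gene type, some passed the test and some did not. The lincRNAs AC125807.2 (ENSG00000250899), 764 bases from the transcription factor gene TEAD4, and AC092306.1 (ENSG00000285128) had log2 fold changes of 0.14 and 0.14 that did not pass the test. AL022315.1 (ENSG00000225867), annotated as antisense, had 0.11, and the intronic AL109614.1 (ENSG00000276603), within BLCAP, had 0.01. AL513165.1 (ENSG00000234160), annotated as antisense, fell by 0.65, a call lost without PBS replicate 1 or M5 replicate 2 and with DESeq2 or no filter. AC055811.4 (ENSG00000278864), a TEC gene within MPRIP, fell by 0.39. AL049840.4 (ENSG00000269958), within KLC1, rose by 0.43, a call lost in 9 of 14 alternatives. These include DESeq2, limma, library totals and TPM scaling, and leaving out PBS replicate 2 or M5 replicate 1. On the scaffolds, AC004556.1 (ENSG00000276345) fell by 1.00, a call lost without PBS replicate 2 or M5 replicate 1 and with DESeq2 or no filter. AL592183.1 (ENSG00000273748) had -0.26 and did not pass the test. Z94721.1 (ENSG00000227598, -0.83) and the unprocessed pseudogene AC103810.3 (ENSG00000265982, 0.61) did not pass either. Some of the uncalled values lie so near 0 that their sign depended on the scaling: it turned under library totals and TPM for AC018629.1, AC024293.1, AC125807.2, AC092306.1, AL022315.1 and AL109614.1.

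The pseudogenes near-identical to a protein-coding gene bear on how their counts can be read, and this comparison was chosen after values were seen. Of the 33 processed pseudogenes, 25 matched a protein-coding transcript at 95% identity or more over at least 80% of their length, 13 of them a ribosomal protein gene. For 4 of them, the 60-base window with the most differing bases inside the coding part of the match is shown beside the same window of the parent, with capitals at the differing bases. AC008038.1 lies on chromosome 7 (133034607 to 133035920, minus strand), AC034236.1 on chromosome 5 (116051917 to 116052289, minus strand), AC138392.1 on chromosome 1 (77810861 to 77811781, minus strand) and AC112777.1 on chromosome 12 (20551590 to 20553012, plus strand), all on GRCh38. The windows show how few bases tell a read of one from a read of the other.
AC008038.1: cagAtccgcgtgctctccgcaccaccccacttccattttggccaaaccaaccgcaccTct
EEF1G: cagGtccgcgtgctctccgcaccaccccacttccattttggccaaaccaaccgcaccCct
AC034236.1: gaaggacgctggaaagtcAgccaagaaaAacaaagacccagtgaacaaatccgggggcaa
RPS25: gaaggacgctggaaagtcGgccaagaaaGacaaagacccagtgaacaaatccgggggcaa
AC138392.1: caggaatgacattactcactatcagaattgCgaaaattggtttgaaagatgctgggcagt
AIDA: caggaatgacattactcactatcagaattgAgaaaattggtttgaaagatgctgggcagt
AC112777.1: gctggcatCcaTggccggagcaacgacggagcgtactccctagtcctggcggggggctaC
UHRF1: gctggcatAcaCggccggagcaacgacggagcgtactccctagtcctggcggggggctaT

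The difference in level between pseudogene and parent went either way. The parent had the higher mean FPKM in 15 of the 25 pairs: AP001324.1, a copy of RPS12 at 98.0% identity, had 11.7 FPKM against 748 for RPS12, and AC012085.1, a copy of the glycolytic gene PGAM1 at 99.9% identity, had 11.1 against 221. In 9 pairs the parent had the lower level. AC034236.1 had 68.5 FPKM and RPS25, a subunit of the small ribosomal particle, 0.0811 FPKM, with 3, 3, 1 and 1 counts. AC024293.1 had 40.1 FPKM and RPS10, likewise of the small subunit, 0.641 FPKM. For AC008038.1 no parent level can be given. It was 99.2% identical to EEF1G, a subunit of translation elongation factor 1, which is not among the genes measured. How reads with several alignments were counted is not given in the sources used here, so the counts of each pair are uncertain.

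**Figure D4:**
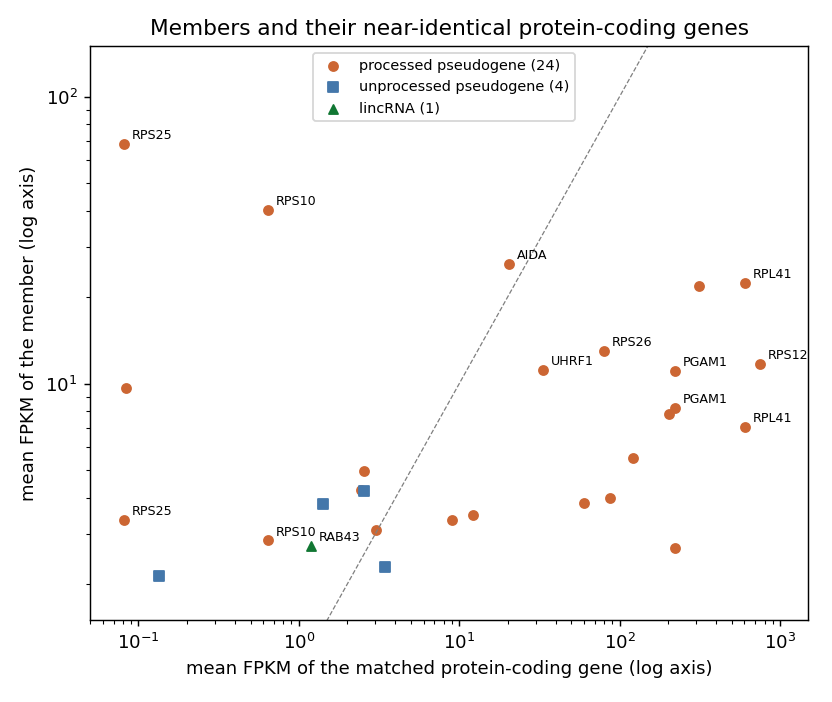
Mean FPKM of members (vertical log axis) against that of their near-identical protein-coding gene (horizontal log axis) for the 29 matches analysed, by gene type, with a dashed line at equal levels. RPS25, RPS10 and other parents at the left have less than their copies, while RPS12, RPL41 and PGAM1 at the right have more.

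Where both members of a near-identical pair were called, they changed in the same direction in 4 of 4 pairs. AC138392.1 (ENSG00000219201), a copy of AIDA, an axin-binding protein, had 318 and 318 counts in PBS and 568 and 527 in M5. It rose by 0.66 (SE 0.11) and AIDA by 0.74 (SE 0.075). AC112777.1 (ENSG00000256663), a copy of UHRF1, which maintains DNA methylation, had 310 and 323 counts in PBS and 247 and 218 in M5. It had a log2 fold change of -0.57 (SE 0.14) and UHRF1 one of -0.54 (SE 0.060). AC092368.3, described above as a rise of 1.85, was 99.7% identical to RAB43, a small GTPase that rose by 2.05. The fourth pair was AL162431.3, an unprocessed pseudogene, and MR1, an antigen-presenting protein, at 1.01 and 0.31. Over the 23 pairs with a tested parent, the log2 fold changes of member and parent had Pearson's r of 0.88 and Spearman's rho of 0.81. Over the 19 of these that are processed pseudogenes, r was 0.74 and rho 0.69. The values describe genes that share libraries and possibly reads. A near-identical copy was found for 8 of the 44 called members with a sequence (18.2%) and for 33 of all 174 members with one (19.0%).

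Members were next set beside their annotated partner, the gene with a symbol that overlaps the member most or, failing that, starts within 5000 bases. A partner was found for 133 members and was itself tested for 102. The log2 fold changes of member and partner had Pearson's r of 0.73 and Spearman's rho of 0.42 over the 102 pairs, and r was 0.62 without the 2 members of largest change. Pairs that overlap on the same strand (42) had r of 0.90 and rho of 0.53, and r of 0.61 without the 2 largest. Pairs that overlap on opposite strands (44) had r of 0.69 and rho of 0.39, and the 11 pairs with neighbouring starts on opposite strands r of 0.09 and rho of 0.26. The values describe genes in shared libraries, and 20 of the 102 pairs share exonic bases.

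Both were called in 16 pairs, in the same direction in 14 and in opposite directions in 2. In 43 pairs the partner alone was called and in 8 the member alone. For scale, 57.7% of all tested genes with a symbol and 28.8% of all members were called. Pairs that overlap may share reads, and the kit does not mark strand. AC113139.1 was lower at -1.95 and RB1CC1 higher at 0.19, a contrast that rests on PBS replicate 1 as described. AC073957.3 (ENSG00000273151), antisense to SUN1 of the nuclear envelope and sharing 38.4% of its exonic bases with another gene, had 240 and 214 counts in PBS and 378 and 290 in M5. It rose by 0.43 (SE 0.15, adjusted p = 0.0223, edgeR) while SUN1 had -0.14 (adjusted p = 0.0281, edgeR). The call of AC073957.3 was lost in 9 of 14 alternatives, among them DESeq2, limma, library totals and TPM scaling. They include leaving out PBS replicate 2 or M5 replicate 1, at 0.34 and 0.20. No test of the difference between member and partner was made.

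**Figure D5:**
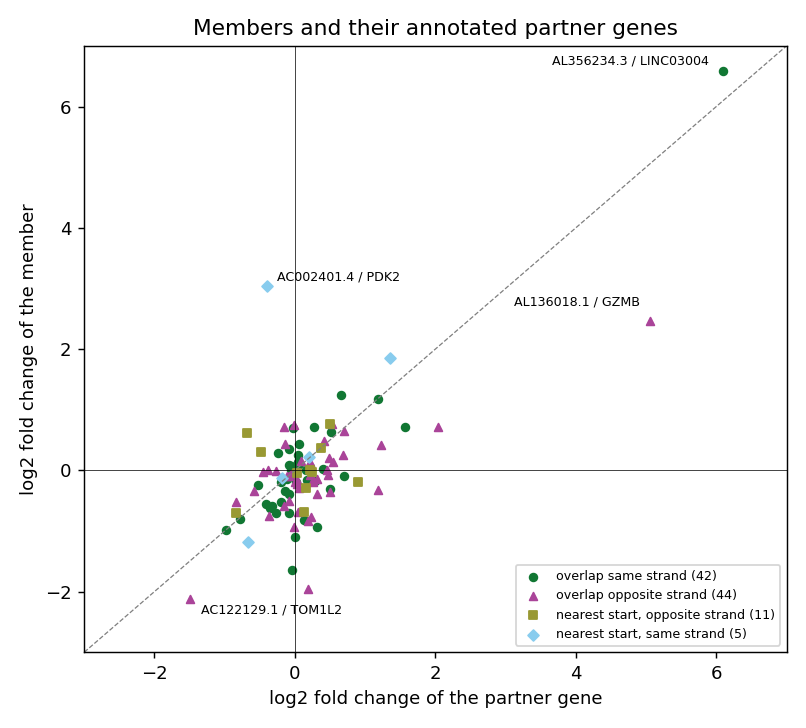
Log2 fold change of each of 102 members (vertical axis) against that of its partner gene (horizontal axis), with marks for the relation of the pair and a dashed line at equal change. AL356234.3 and AL136018.1 lie far to the right with their partners LINC03004 and GZMB, AC122129.1 lies at the lower left with TOM1L2, and AC002401.4 rose by 3.03 beside PDK2 at -0.40.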

How the data were processed

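RNA of 2 PBS and 2 M5 libraries of HaCaT cells was analysed, grouped by the sample titles. Per the file headers, each deposited file lists counts of reads and FPKM per gene; the deposited FPKM follow from the deposited counts, since dividing one by the other gave whole-number gene lengths. GRCh38, HTSeq 0.13.5 and HISAT2 are named, without roles, per the submitters' processing notes. Neither the annotation release nor the strand setting nor the rule for multiply aligned reads is given in the sources used here. The kit named in the labels' protocols does not mark strand.

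The deposited counts of the 10809 genes that averaged 1 FPKM or more were tested with edgeR 4.0.16 in R 4.3.3 (TMM scaling, glmQLFit and glmQLFTest, two-sided, Benjamini-Hochberg adjusted p under 0.05), and all 222 members were among them. The standard error was taken as the absolute log2 fold change over the root of F. The edgeR step was tested on simulated data. The members and lists were chosen with earlier results of these data known. Named genes are the 10 largest called rises and falls, the 6 of highest mean FPKM, the 2 of highest mean FPKM of each gene type, the 3 on each side of the threshold, those with 0 counts in a group, and those whose called partner went the other way. The neighbouring genes, the near-identical copies, the poly(A) signals and the genes named in those comparisons were examined after values were seen. Positions and transcripts came from GENCODE 29 on GRCh38; none of the 215 member identifiers in the gene name table used had a symbol. Copies were sought with BLAST 2.17.0. A fold against 0 counts used a floor of 3 counts summed over the group, for counting error only. Alternatives were limma 3.58.1 on log2(FPKM + 1) and with a pseudocount of 0.1, DESeq2 1.42.0, other scalings and filters, a stricter threshold, a replicate block and each library left out. Replicates were not copies of each other: the median chi-square over genes was 0.999 between the PBS libraries and 1.77 between the M5 libraries, above the 0.455 of sampling alone. Some results that these rules select are not reported here.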

Additional observations from a re-analysis of the deposited data

How the results depend on the processing

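For 41 named members, 478 of 574 alternative values kept the direction and the side of the threshold, 46 kept the direction but lost the call and 21 gained it. The other 29 changed sign, all for 7 members that were not called in either fit. The count of members that fell moved most: from 37 it went to 19 with DESeq2, 79 and 80 with limma on log2(FPKM + 1) and log2(FPKM + 0.1), 22 with no filter on low values and 17 at an adjusted p under 0.01. The rises stayed between 18 and 27 under every alternative run. With no filter more genes were tested; for the other settings the cause was not tested. The median log2 fold change of the members, -0.13, became -0.23 and -0.27 with limma, -0.28 with library totals and -0.31 with TPM scaling. Pearson's r of members with partners, 0.73, became 0.57 and 0.68 with limma and 0.64 with a filter at 2 FPKM, which leaves fewer partners. With 1 library left out, where the lone library is assumed to vary like the others, 21 to 27 members rose and 25 to 35 fell, the median ran from -0.16 to -0.12 and r from 0.69 to 0.72. Deviations of same-numbered libraries had r of -0.013, so no shared deviation was seen. With 2 libraries a group, this cannot tell whether same-numbered libraries were handled together. With the replicate number as a block, 26 members rose and 34 fell. With limma at pseudocounts of 1 and 0.1, library totals and TPM scaling in turn, the signs turned to -0.035, -0.039, -0.039 and -0.069 for AL022315.1 (from 0.11), -0.0078, -0.0079, -0.013 and -0.043 for AC024293.1 (from 0.14), -0.023, -0.027, -0.015 and -0.044 for AC125807.2 (from 0.14), -0.13, -0.15, -0.15 and -0.17 for AL109614.1 (from 0.01), -0.029, -0.029, -0.028 and -0.058 for AC018629.1 (from 0.12) and -0.0053, -0.0054, -0.0099 and -0.040 for AC092306.1 (from 0.14). AL109614.1 also had -0.00076 with a filter at 2 FPKM. With 1 library left out, AC034236.1 (from -0.12) ran from -0.30 to 0.075, AC125807.2 from -0.078 to 0.33 and AL109614.1 from -0.35 to 0.33. With a median of 44.5 counts a member, small changes may not have been detectable.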
